A study of Mus musculus with 30 samples.

Results

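The receptor tyrosine kinases Axl, Mertk and Tyro3 and their ligands Gas6 and Pros1 were followed through neural retinas of Abca4-/-Rdh8-/- mice, without bright light and after it, with and without drugs that act on G protein-coupled receptors. The 5 genes were taken by symbol from the count tables of both experiments and summed over their transcripts. They are 5 of 42439 gene identifiers in these tables, and all 5 passed the filter on low counts in every comparison.

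Axl, Mertk and Tyro3 form a family of membrane receptors that recognise dying cells and shed cell parts through bridging ligands. Gas6 and Pros1 (protein S) bind phosphatidylserine exposed on such membranes with a vitamin K dependent domain. With their other end they bind receptors of the family, though not every ligand binds every receptor. In the eye, Mertk is known for its role in the pigment epithelium, where it drives the daily uptake of shed photoreceptor outer segments, and its loss leads to photoreceptor degeneration. The receptors also dampen inflammation in phagocytes, in part through the Socs proteins.

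All groups came from Abca4-/-Rdh8-/- mice on a C57BL/6J background, aged 4 to 6 weeks and of both sexes, so the loss of Abca4 and Rdh8, which slows clearance of all-trans-retinal, is shared by controls and treated mice, and there was no wild-type group. Light-exposed mice received 10000 lux for 30 min, and retinas were taken 24 h later. Drugs were injected into the peritoneum 30 min before light. The experiment with mixtures had 4 groups: DMSO without light, DMSO with light, bromocriptine with metoprolol and tamsulosin before light (BMT), and metoprolol with doxazosin and bromocriptine before light (MDB). The single-drug experiment had 6: DMSO without light, DMSO with light, and bromocriptine (BRM, a dopamine receptor agonist), metoprolol (MTP, a beta-adrenergic blocker), tamsulosin (TAM) or doxazosin (DOX), both alpha-adrenergic blockers, before light. Each group had 3 libraries. The labels do not say how many animals gave a library, so p-values measure the spread between these libraries, which may be technical in part.

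Genome positions are those of the deposited tables (GRCm38.p3). Axl (ENSMUSG00000002602) lies on chromosome 7, 25757273 to 25788705, minus strand. Mertk (ENSMUSG00000014361) and Tyro3 (ENSMUSG00000027298) lie on the plus strand of chromosome 2, at 128698956 to 128802894 and 119797733 to 119818104. Gas6 (ENSMUSG00000031451) lies on chromosome 8, 13465374 to 13494535, minus strand, and Pros1 (ENSMUSG00000022912) on chromosome 16, 62854307 to 62929346, plus strand.

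Axl and Pros1 are shown because each was higher after light in both experiments, and not as a receptor and ligand pair. Given are the 250 bases before their RefSeq start, 5′ to 3′ on the strand of the gene. In GRCm38.p6 these are chr7:25788734-25788983 (minus strand) for Axl and chr16:62854057-62854306 (plus strand) for Pros1. Capitals mark matches to any of 7 motifs searched on both strands: AP-1 (TGANTCA), CRE (TGACGTCA), STAT (TTCNNNGAA), kappaB, ISRE, TEAD (GGAATG) and Sp1 (GGGCGG).
Axl: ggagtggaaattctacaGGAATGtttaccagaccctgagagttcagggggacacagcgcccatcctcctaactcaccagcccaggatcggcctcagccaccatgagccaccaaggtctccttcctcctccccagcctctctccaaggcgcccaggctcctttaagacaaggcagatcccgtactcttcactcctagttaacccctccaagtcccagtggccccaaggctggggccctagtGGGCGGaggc
Pros1: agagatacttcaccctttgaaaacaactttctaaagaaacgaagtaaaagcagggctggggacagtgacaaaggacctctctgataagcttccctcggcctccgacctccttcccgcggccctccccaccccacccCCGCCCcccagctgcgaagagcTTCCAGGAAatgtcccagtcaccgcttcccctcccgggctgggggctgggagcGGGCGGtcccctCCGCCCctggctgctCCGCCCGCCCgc
The Axl window held 1 TEAD match, 233 to 228 bases before the start, and 1 Sp1 match, 10 to 5 bases before it. Pros1 held 1 STAT match, 92 to 84 bases before the start, and 5 Sp1 matches, of which the last 2 overlap. Of 32851 mouse windows of the same length, 12.6% held the TEAD letters, 7.02% the STAT letters and 32.7% the Sp1 letters. The other 3 genes held Sp1 matches only, 3 in Mertk, 3 in Tyro3 and 4 in Gas6. These are matches of letters and not measured binding sites.

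Depth after summing per gene was 18.5 to 25.8 M expected counts a library in the mixture experiment and 12 to 22.2 M in the single-drug experiment. Behind the values below stand 79 to 701 counts a library for Axl, 78 to 262 for Mertk, 146 to 354 for Tyro3, 1844 to 4321 for Gas6 and 104 to 983 for Pros1. The retina label was borne out by rod markers, which were far above all other lists in every group. Lens-fibre markers varied widely between libraries of most groups. The mean log2 CPM (counts relative to the TMM-scaled library total) of 6 such genes ran from -1.65 to 7.68 over the 30 libraries. This score also differed between groups. It was high in all libraries of MDB (6.89, 6.41 and 6.57), BRM (6.40, 6.16 and 7.68) and single-drug light alone (5.50, 5.46 and 5.37). With BMT it was 2.03, 6.39 and -1.65, and the remaining groups were also widely spread. The sum of 10 pigment epithelium markers also varied, from 235 to 1167 CPM over all libraries and from 235 to 1138 CPM inside the unexposed group of the single-drug experiment.

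Axl had the largest response of the 5 genes to light in the mixture experiment, and Pros1 the next. In that experiment Axl stood at 4.87, 6.87 and 5.76 CPM without light and at 27.0, 26.2 and 23.2 CPM after light. Every light library was far above every unexposed library. The log2 fold change was 2.13 ± 0.22 (SE; edgeR quasi-likelihood, adjusted p = 9.49e-05), a fold of 4.36. In the single-drug experiment Axl was at 9.56, 6.50 and 5.37 CPM without light and at 21.8, 33.0 and 26.1 CPM after it. The groups were again apart, and Axl rose by 1.91 ± 0.28 on the log2 scale (adjusted p = 0.000278).

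Mertk, the receptor that pigment epithelium uses for outer segments, passed the test for light in the single-drug experiment but not in the mixture experiment. In the mixture experiment it was at 9.60, 4.50 and 6.09 CPM without light and at 6.58, 7.85 and 10.6 CPM with light. These groups overlapped, and the log2 fold change of 0.31 ± 0.28 did not pass (adjusted p = 0.534). In the single-drug experiment it was at 6.70, 5.81 and 4.95 CPM without light and at 9.54, 12.2 and 10.9 CPM with light. There it rose by 0.90 ± 0.18 on the log2 scale (adjusted p = 0.00256), with no overlap. The difference between the experiments was itself not called (0.59 ± 0.34, adjusted p = 0.422). Of 9 pigment epithelium markers tested in the single-drug experiment, none was called after light, beside 24.0% of all tested genes. Their median log2 fold change was -0.80. All 10 listed markers summed to 387 to 761 CPM with light and 235 to 1138 CPM without, a wide spread between libraries. The part of the pigment epithelium in the Mertk values was not tested.

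Tyro3, which in the nervous system is mainly a neuronal member of the family, did not pass in either experiment. It was at 12.0, 12.7 and 11.8 CPM without light and 13.3, 13.5 and 15.0 CPM with light in the mixture experiment. Those libraries did not overlap, but the log2 difference was small, 0.20 ± 0.09 (adjusted p = 0.216). In the single-drug experiment it was at 14.3, 14.0 and 10.6 CPM without light and 12.6, 11.0 and 12.2 CPM with light. Here the groups overlapped and the log2 difference was -0.12 ± 0.16 (adjusted p = 0.628).

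The ligands moved in opposite directions. In the mixture experiment Gas6 was at 158, 209 and 189 CPM without light and 133, 130 and 136 CPM with light. The single-drug experiment gave 204, 190 and 177 CPM for Gas6 without light against 112, 90.0 and 126 CPM. Every light library was below every unexposed library of its experiment. Gas6 fell by 0.48 ± 0.09 (adjusted p = 0.00428) and by 0.80 ± 0.14 (adjusted p = 0.00105) on the log2 scale. Pros1, better known as an anticoagulant cofactor, was at 6.60, 14.6 and 5.62 CPM without light and 29.6, 30.6 and 34.8 CPM with light in the mixture experiment. It was at 17.4, 5.85 and 7.85 against 41.8, 42.8 and 31.2 CPM in the single-drug experiment. Each experiment thus had 1 unexposed library well above its 2 partners, and the groups still did not overlap. Pros1 rose by 1.82 ± 0.32 (adjusted p = 0.00264) and by 1.90 ± 0.47 (adjusted p = 0.00822).

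In all, light called 3 of the 5 genes in the mixture experiment (Axl and Pros1 higher, Gas6 lower), where 13.2% of 16007 tested genes were called, and 4 of 5 in the single-drug experiment (with Mertk higher), where 24.0% of 16249 were called. Libraries did not overlap for 4 of 5 genes in each, against 30.3% and 40.4% of all tested genes. The median log2 fold change of the 5 genes was 0.31 and 0.90, beside 0.01 and 0.02 over all tested genes. The test of a difference in light response between the experiments called 0 of the 5, and no gene by edgeR (0% called; 2518 genes, or 15.1% of 16645, and 0 of the 5 at an unadjusted p under 0.05; 410 with DESeq2 and 11 with limma voom after adjustment).

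**Figure D1:**
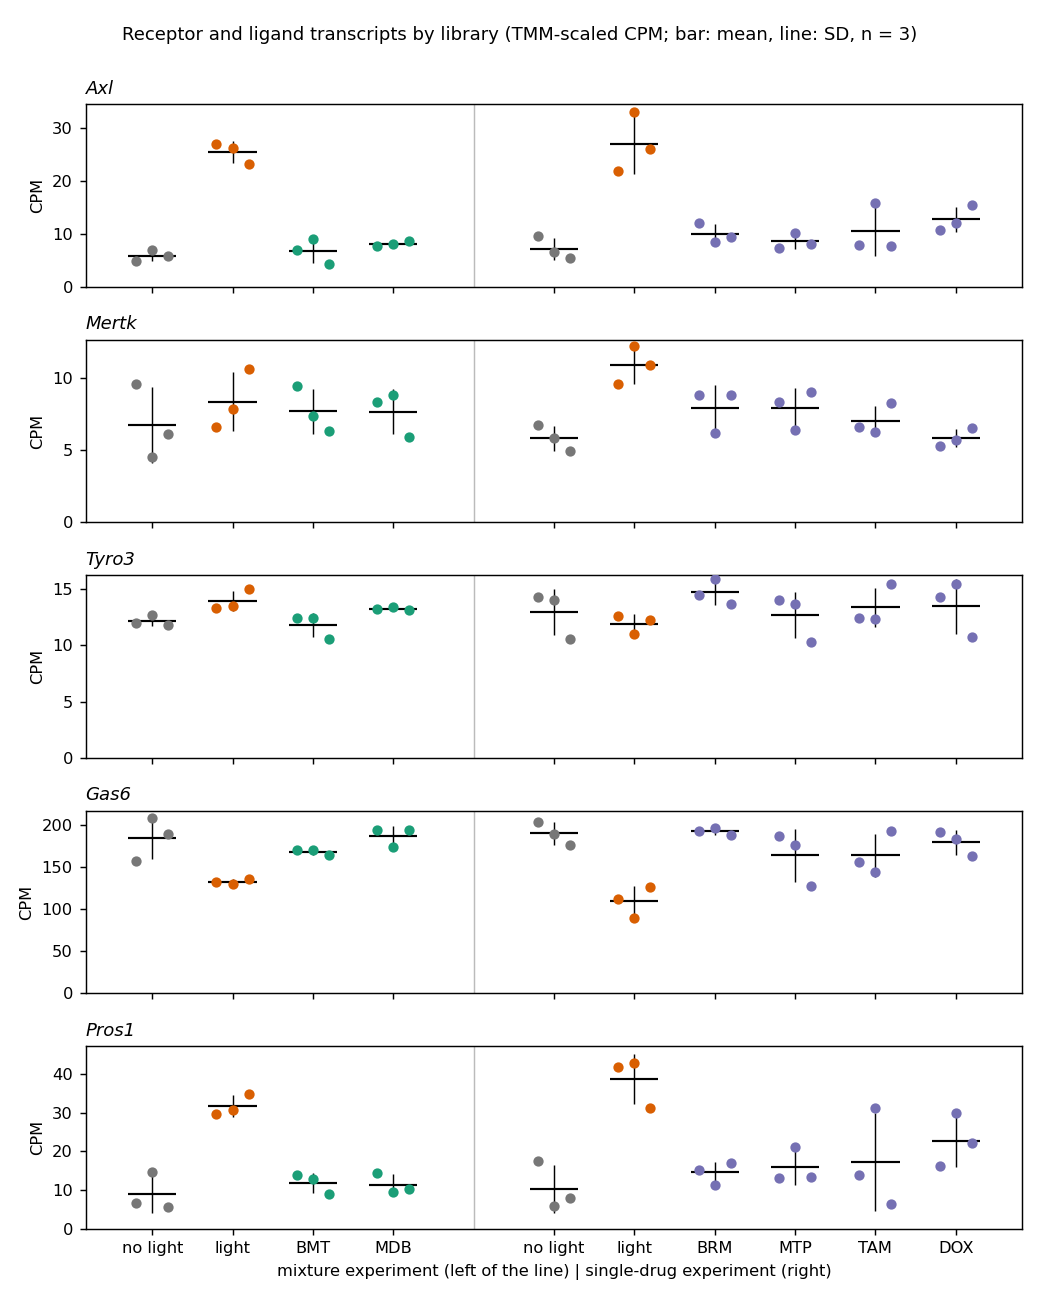
Level of each gene in every library, in TMM-scaled CPM on the vertical axis, for the 4 groups of the mixture experiment and the 6 of the single-drug experiment; points are libraries, horizontal bars means and vertical lines the SD (n = 3). Axl and Pros1 are highest, and Gas6 lowest, in the groups with light and DMSO, while Tyro3 stays between 10.3 and 15.9 CPM in all groups.

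These are bulk retinas, so fewer cells of a type and less RNA per cell cannot be told apart. Other markers moved with the light groups. The 8 rod markers summed to 63530 to 75642 CPM without light and 35848 to 43961 CPM with light in the mixture experiment, and to 70711 to 76965 against 23596 to 32474 CPM in the single-drug experiment. The 4 astrocyte markers summed to 31.6 to 62.8 CPM without light and 298 to 382 CPM with light, and to 36.0 to 55.7 against 300 to 349 CPM. Most of that sum was Gfap, which Müller glia also make under stress, at a mean of 28.2 against 303 CPM in the mixture experiment. Of the other astrocyte markers in that experiment, Aldh1l1 was at a mean of 5.63 CPM without light and 33.8 CPM with it, Pax2 at 0.295 and 0.375 CPM, and S100b at 10.3 and 7.39 CPM. Of the 4, 2 were called higher and 0 lower in the mixture experiment, and 2 and 1 in the single-drug experiment. The 8 Müller glia markers summed to 2079 to 3144 against 1887 to 2154 CPM, and to 2382 to 2804 against 2556 to 2759 CPM. The 7 endothelial markers summed to 134 to 138 against 216 to 268 CPM in the mixture experiment and to 117 to 172 against 233 to 364 CPM in the single-drug experiment. In each, 1 of the 7 was called higher. Kdr made up most of the sum, at a mean of 76.8 against 181 CPM and 90.9 against 210 CPM.

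Microglia, which can carry Axl and Mertk, had marker sums that overlapped between light and no light. Their 10 markers summed to 27.8 to 29.2 CPM without light and 24.8 to 31.7 CPM with light in the mixture experiment, and to 27.5 to 29.1 against 26.6 to 30.2 CPM in the single-drug experiment. Of the 9 tested, none was called higher and 1 was called lower in each experiment. Markers of monocytes and border macrophages were low: the 7 summed to 2.13 to 4.84 against 3.58 to 4.84 CPM, and to 1.86 to 6.14 against 6.93 to 9.11 CPM. Only 2 and 3 of these 7 genes passed the filter. The part of each cell type in the levels of the receptors and ligands was not tested.

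On a per-length scale (FPKM as deposited, summed over transcripts) Tyro3 was the most abundant receptor without light, and Axl after light. Axl made up 23.0% ± 4.99 (SD, n = 3) of the summed receptor FPKM without light and 52.9% ± 4.78 with light in the mixture experiment, and 26.6% ± 3.41 and 53.1% ± 4.31 in the single-drug experiment. Tyro3 went from 51.1% ± 3.69 to 30.3% ± 1.14 and from 51.9% ± 3.07 to 25.6% ± 4.50. The summed level of the 3 receptors was 6.33 ± 0.405 FPKM without light and 13.6 ± 0.0777 FPKM with light, and 6.51 ± 1.21 and 14.4 ± 1.94 FPKM in the single-drug experiment. The share of Axl in the drug groups was 24.6% ± 5.42 with BMT, 27.1% ± 2.02 with MDB, 28.8% ± 4.95 with BRM, 28.4% ± 4.03 with MTP, 32.3% ± 11.0 with TAM and 41.8% ± 11.3 with DOX. The DOX libraries ran from 34.8% to 54.8%, with a median of 35.8%. The highest was DOX replicate 3, with Axl at 5.72 FPKM and 15.4 CPM. There a 602-base retained-intron form, Axl-008, took 7.11% of the Axl count but 35.1% of the Axl FPKM.

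**Figure D2:**
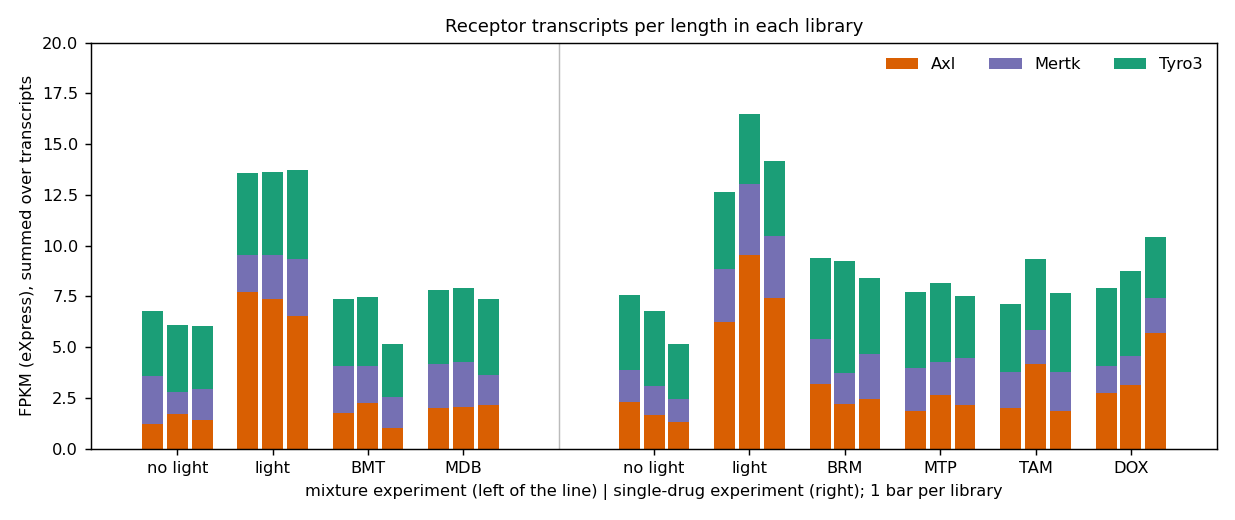
FPKM of Axl, Mertk and Tyro3 stacked in each library (1 bar per library, vertical axis in FPKM summed over the transcripts of a gene). The tallest bars are those of light with DMSO, at means of 13.6 and 14.4 FPKM, and their added height is mostly Axl.

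Gas6 was the more abundant ligand in every library on the same scale, but its lead over Pros1 shrank with light. The ratio of Gas6 to Pros1 FPKM was 30.6 ± 12.4 without light and 5.36 ± 0.361 with light in the mixture experiment, and 28.3 ± 13.1 and 3.73 ± 1.26 in the single-drug experiment. It was 18.5 ± 3.80 with BMT, 21.6 ± 3.85 with MDB, 17.3 ± 4.17 with BRM, 13.7 ± 3.89 with MTP, 19.3 ± 16.5 with TAM and 10.8 ± 3.76 with DOX. The TAM libraries were spread most widely among the drug groups, with ratios from 5.86 to 37.7.

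The mixtures were compared with light alone next. The comparisons within an experiment share the same 3 light libraries, so their values are given side by side. With BMT, Axl was at 7.04, 8.94 and 4.36 CPM and with MDB at 7.80, 8.05 and 8.58 CPM, all far below light alone. Axl fell by 1.90 ± 0.21 on the log2 scale with BMT (adjusted p = 0.000197) and by 1.65 ± 0.21 with MDB (adjusted p = 0.000514). Pros1 was at 13.8, 12.8 and 8.95 CPM with BMT and at 14.4, 9.58 and 10.2 CPM with MDB. It fell by 1.41 ± 0.31 (adjusted p = 0.00954) and by 1.47 ± 0.31 (adjusted p = 0.0107), with no overlap with light alone. For Pros1 with MDB the adjusted p was 0.0535 without its replicate 2 and 0.0509 without its replicate 3.

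Gas6 was at 171, 170 and 164 CPM with BMT and at 194, 174 and 194 CPM with MDB, in each case above every library of light alone. It rose by 0.34 ± 0.09 with BMT (adjusted p = 0.0239) and by 0.49 ± 0.09 with MDB (adjusted p = 0.00451). The BMT call is near the threshold: adjusted p was 0.0654 without BMT replicate 1, 0.0536 without BMT replicate 2, 0.0783 without light replicate 1 and 0.0768 without light replicate 2, and 0.0537 and 0.0561 on FPKM per transcript. Mertk was at 9.40, 7.32 and 6.30 CPM with BMT and 8.31, 8.81 and 5.87 CPM with MDB, overlapping light alone. Its log2 differences were -0.12 ± 0.28 in both. Tyro3 was at 12.4, 12.4 and 10.6 CPM with BMT and 13.2, 13.4 and 13.1 CPM with MDB, with log2 differences of -0.24 ± 0.09 (adjusted p = 0.108) and -0.07 ± 0.09 (adjusted p = 0.731).

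Cell type markers moved with these groups too. Rod markers summed to 61174 to 80750 CPM with BMT and 55712 to 64628 CPM with MDB, against 35848 to 43961 CPM with light alone. Astrocyte markers summed to 48.3 to 101 and 45.8 to 68.9 CPM, against 298 to 382 CPM. Müller glia markers were at 1921 to 2970 CPM with BMT and 2857 to 3240 CPM with MDB, against 1887 to 2154 CPM, and endothelial markers at 111 to 160 and 127 to 146 CPM, against 216 to 268 CPM. Their part in the receptor and ligand values was not tested.

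Each mixture thus called 3 of the 5 genes, Axl and Pros1 lower and Gas6 higher, beside 17.7% of all tested genes called with BMT and 9.63% with MDB. Libraries did not overlap with light alone for 4 of 5 genes with BMT (39.1% of tested genes) and 3 of 5 with MDB (33.2%). Between BMT and MDB, 0 of 5 genes were called by edgeR, 0 at an unadjusted p under 0.05, and 0 with DESeq2 or limma voom. Over all genes 0 were called by edgeR (0%), with 3001 at an unadjusted p under 0.05 (18.7%), 617 called by DESeq2 and 0 by limma voom. Tyro3 and Gas6 did not overlap between the mixtures (27.0% of tested genes), both lower with BMT. The log2 difference of BMT from MDB was -0.26 ± 0.21 for Axl and 0.06 ± 0.31 for Pros1.

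No drug doses are used here. All 4 single drugs are compared with the same 3 light libraries. Axl was at 12.0, 8.50 and 9.46 CPM with BRM, 7.39, 10.2 and 8.18 CPM with MTP, 7.96, 15.8 and 7.65 CPM with TAM, and 10.7, 12.1 and 15.4 CPM with DOX. All 12 of these libraries were below the lowest light library, at 21.8 CPM. Axl fell by 1.43 ± 0.28 with BRM (adjusted p = 0.00453), 1.65 ± 0.28 with MTP (adjusted p = 0.00260), 1.36 ± 0.28 with TAM (adjusted p = 0.00626) and 1.08 ± 0.27 with DOX (adjusted p = 0.0208). The DOX call was lost without DOX replicate 1 (adjusted p = 0.107), DOX replicate 2 (0.0587) or light replicate 2 (0.117), and on FPKM with pseudocount 0.1 (0.0631). The TAM call was lost when only the TAM and light groups were fitted (0.0670).

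Gas6 was at 193, 197 and 188 CPM with BRM, 187, 177 and 128 CPM with MTP, 156, 144 and 193 CPM with TAM, and 192, 184 and 163 CPM with DOX. The groups did not overlap with light alone, whose highest library was at 126 CPM, although MTP replicate 3 came close. Gas6 rose by 0.82 ± 0.14 with BRM (adjusted p = 0.00274), 0.59 ± 0.14 with MTP (adjusted p = 0.0172), 0.59 ± 0.14 with TAM (adjusted p = 0.0161) and 0.72 ± 0.14 with DOX (adjusted p = 0.00708). The MTP call was lost without MTP replicate 1 (0.0846), MTP replicate 2 (0.0585) or light replicate 2 (0.0768), and the TAM call without TAM replicate 3 (0.109) or light replicate 2 (0.0792). Both were also lost when only the drug and light groups were fitted (0.0676 with MTP and 0.0824 with TAM).

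Mertk, which light had raised in this experiment, was at 8.82, 6.15 and 8.81 CPM with BRM, 8.32, 6.36 and 9.01 CPM with MTP, 6.60, 6.23 and 8.22 CPM with TAM, and 5.31, 5.68 and 6.55 CPM with DOX. All were below the lowest light library, at 9.54 CPM. Mertk fell by 0.63 ± 0.18 with TAM (adjusted p = 0.0399) and by 0.89 ± 0.18 with DOX (adjusted p = 0.00812). With BRM and MTP its log2 differences were -0.45 ± 0.18 (adjusted p = 0.109) and -0.46 ± 0.18 (adjusted p = 0.132). The TAM call did not hold without any 1 TAM library (0.108, 0.0987 and 0.0572), without light replicate 2 (0.156) or 3 (0.0904), or with no filter (0.0598). It was also lost with only the TAM and light groups fitted (0.10) and on FPKM per transcript (0.0642 and 0.0834). The DOX call was at 0.0529 without DOX replicate 1 and without light replicate 2.

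In the edgeR fit of all groups and libraries, Pros1 was not called with any single drug. Limma voom called it with BRM (adjusted p = 0.0214), MTP (0.0354) and TAM (0.0410), and DESeq2 with BRM (0.0368). When only the drug and light groups were fitted, Pros1 was also called by edgeR with BRM and MTP. It was at 15.3, 11.4 and 16.9 CPM with BRM, 13, 21.2 and 13.3 CPM with MTP, and 16.3, 29.8 and 22.2 CPM with DOX, all below the lowest light library at 31.2 CPM. With TAM it was at 13.9, 31.2 and 6.52 CPM, so that TAM replicate 2 reached the light group. Its log2 differences were -1.41 ± 0.46 with BRM (adjusted p = 0.0523), -1.29 ± 0.46 with MTP (adjusted p = 0.0901), -1.16 ± 0.46 with TAM (adjusted p = 0.126) and -0.76 ± 0.45 with DOX (adjusted p = 0.286). TAM replicate 2 was also the TAM library with the most Axl, and its astrocyte marker sum of 283 CPM lay far above the others of that group, at 41.7 and 55.6 CPM. Without it, the TAM difference of Pros1 was -1.93 (adjusted p = 0.00853). Over all runs with 1 library left out, that difference ran from -1.93 to -0.76, with adjusted p from 0.00853 to 0.399.

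Pros1 varied with the lens-fibre score inside groups. In 7 of 10 groups the library with the highest score was also the one with the most Pros1, against 4 of 10 for Axl, 2 for Mertk, 5 for Tyro3 and 3 for Gas6. With that score as a covariate the light differences of Pros1 were 2.03 ± 0.21 (adjusted p = 8.23e-05) and 1.81 ± 0.43 (adjusted p = 0.00693), and its BRM difference was -1.54 ± 0.43 (adjusted p = 0.0265).

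The rod marker sum was 49919 to 62367 CPM with BRM, 52902 to 65168 CPM with MTP, 49880 to 77424 CPM with TAM and 51460 to 70047 CPM with DOX, all above the 23596 to 32474 CPM of light alone. The astrocyte sum was 56.2 to 93.6, 99.4 to 136, 41.7 to 283 and 192 to 239 CPM in the same order, against 300 to 349 CPM. Müller glia markers were at 3195 to 3569 CPM with BRM, above the 2556 to 2759 CPM of light alone, and overlapped light alone with the other 3 drugs. Endothelial markers were at 140 to 215 CPM over the 4 drugs, below the 233 to 364 CPM of light alone. Their part was not tested.

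Tyro3 was at 14.5, 15.9 and 13.7 CPM with BRM, 14.0, 13.7 and 10.3 CPM with MTP, 12.4, 12.3 and 15.4 CPM with TAM and 14.3, 15.4 and 10.7 CPM with DOX. Its log2 differences from light alone ran from 0.09 to 0.30, and none passed. The single drugs thus called 2 of 5 genes with BRM (14.4% of all tested genes called), 2 with MTP (10.3%), 3 with TAM (10.6%) and 3 with DOX (11.9%). Libraries did not overlap with light alone for 5 of 5 genes with BRM (39.5% of tested genes), 4 with MTP (29.7%), 3 with TAM (27.7%) and 4 with DOX (31.3%).

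**Figure D3:**
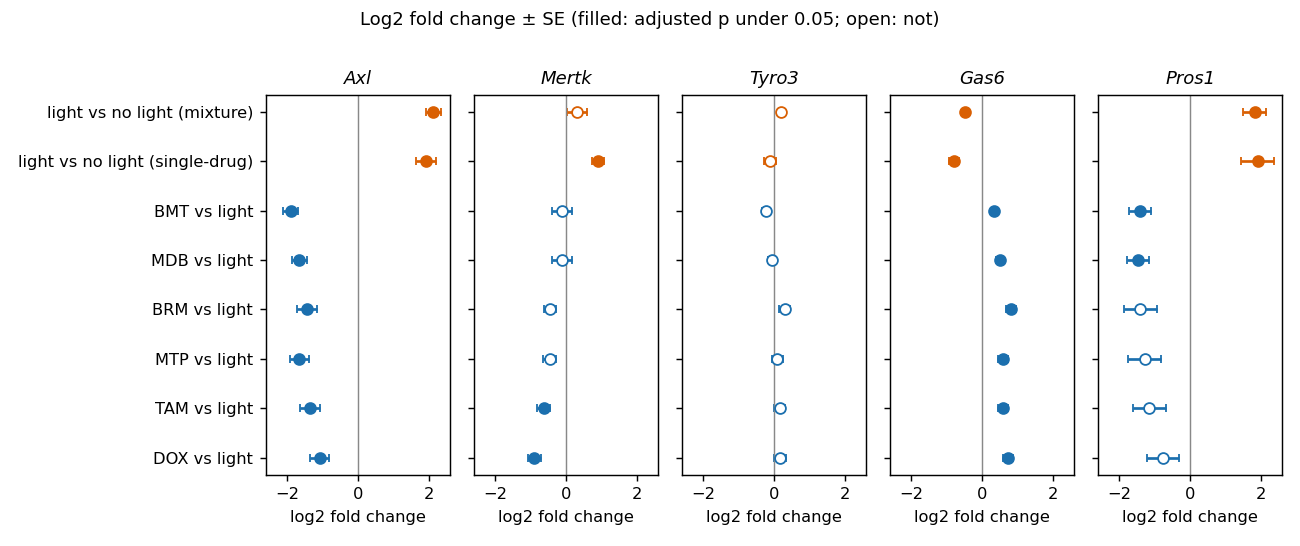
Log2 fold change of each gene (horizontal axis; error bars are the SE) in the light comparisons and in the 6 comparisons of drug with light against light alone; filled points passed an adjusted p of 0.05. Axl passed in all 8 comparisons, Gas6 in all 8 with the opposite sign, Pros1 in 4, Mertk in 3 and Tyro3 in 0.

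Ordered by mean level, light with DMSO was highest for Axl and Pros1 in both experiments and did not overlap the next group, which was MDB (Axl) and BMT (Pros1) in the mixture experiment and DOX for both genes in the single-drug experiment. For Gas6 it was lowest in both and did not overlap its neighbour, BMT at 168 ± 4.11 CPM and MTP at 164 ± 31.8 CPM. All other neighbours in the order overlapped for Axl, Pros1 and Gas6. For Mertk, light stood apart in the single-drug experiment, above BRM at 7.92 ± 1.54 CPM, and no neighbours were apart in the mixture experiment. For Tyro3 the only neighbours without overlap were MDB, at 13.3 ± 0.152 CPM, and unexposed retinas, at 12.1 ± 0.494 CPM.

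Against unexposed retinas, 0 of 5 genes were called in any of the 6 drug groups by edgeR, and 0 by DESeq2 or limma voom. The same edgeR fits called 0% of all tested genes in these comparisons, so these 5 share that count with every other gene. At an unadjusted p under 0.05 there were 0 of the 5 genes with BMT and TAM, and 1 with MDB (Axl, 0.48 ± 0.21, adjusted p = 0.482). There was 1 with BRM (Mertk, 0.45 ± 0.18, adjusted p = 0.266) and 1 with MTP (Mertk, 0.44 ± 0.19, adjusted p = 0.581). DOX had 2, Axl (0.83 ± 0.28, adjusted p = 0.286) and Pros1 (1.13 ± 0.46, adjusted p = 0.331). Over all genes, unadjusted p was under 0.05 for 1009 genes with BMT (6.30%), 1642 with MDB (10.3%), 2535 with BRM (15.6%), 1395 with MTP (8.59%), 1327 with TAM (8.17%) and 2110 with DOX (13%). DESeq2 called 13, 22, 381, 3, 7 and 11 genes in that order, and limma voom 1 with BRM and 0 with the others. With DOX, Axl stood above unexposed retinas without overlap, at 12.7 ± 2.39 against 7.15 ± 2.17 CPM, 1 of 5 genes to do so (17.7% of tested genes). With MDB, Axl and Tyro3 did so, 2 of 5 (14.6%), Axl at 8.14 ± 0.400 against 5.83 ± 1.00 CPM. The astrocyte marker sum was 192 to 239 CPM with DOX, against 36.0 to 55.7 CPM in unexposed retinas of that experiment. With MDB it was 45.8 to 68.9 CPM, against 31.6 to 62.8 CPM. Its part in the Axl values was not tested.

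Most Axl counts were given to 2 coding transcripts, Axl-001 and Axl-002, which differ by a 27-base coding exon, exon 10 of 20 in Axl-001 (chr7:25773099-25773125, minus strand, GENCODE annotation of GRCm38). The exon is shown in capitals with 12 bases on either side, and Axl-002 joins the flanks.
Axl-001: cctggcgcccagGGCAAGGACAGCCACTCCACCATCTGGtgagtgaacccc
Axl-002: cctggcgcccagtgagtgaacccc
Axl-002 took 0% to 17.2% of the Axl count in the mixture experiment (median 1.80%) and 0.0193% to 31.8% in the single-drug experiment (median 9.24%). Its share varied as much within groups as between them: with light alone it was 17.2%, 0.00104% and 3.31% in the mixture experiment and 23.2%, 1.97% and 22.9% in the single-drug experiment. Without light it was 2.33%, 0.00337% and 0%, and 0.0193%, 24.1% and 3.55%. The eXpress program splits reads that fit both forms by estimate, so shares near 0% are estimates too. The retained-intron form Axl-008 reached 7.11% of the count in 1 library, DOX replicate 3.

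**Figure D4:**
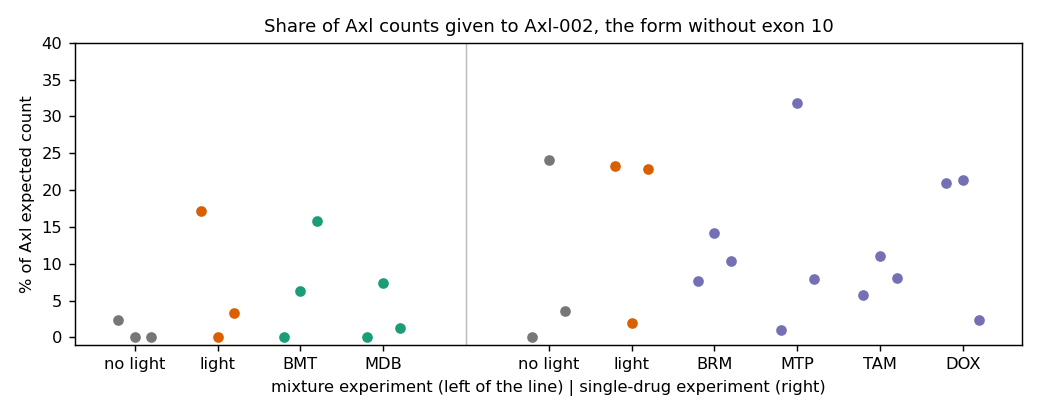
Percent of the expected count of Axl given to Axl-002, the form without exon 10, in each library (points) of the 10 groups. The share spans 1.01% to 31.8% within the MTP group alone.

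Of the other genes, Gas6 had 1 transcript and Pros1-001 held at least 99.3% of the Pros1 count. Tyro3-002 held 81.9% to 99.6% of the Tyro3 count, and a retained-intron form, Tyro3-003, up to 12.5% and 17.8% in the 2 experiments. Mertk-002, annotated as a processed transcript, reached 13.4% and 15.4% of the Mertk count. The authors' deposited table of changed transcripts holds 521 entries for the mixtures and 622 for the single drugs. In the authors' deposited table, Axl-001 was given at -2.05 for unexposed against light, -1.92 for BMT and -1.58 for MDB (log2; adjusted p of the joint test = 0.00120). For the single drugs the authors' deposited table gave Axl-001 at -1.86 without light, -1.33 with BRM, -1.61 with MTP, -1.23 with TAM and -1.08 with DOX (adjusted p = 0.0277). The authors' deposited table listed Pros1-001 for the mixtures alone, at -1.96, -1.41 and -1.47 (adjusted p = 0.00604). It is the same set of libraries and adds no independent evidence.

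Around the receptors, 70 genes of 8 roles were examined, of which 65 passed the filter in each experiment. Light called 7 of them higher and 7 lower in the mixture experiment, and 13 higher and 12 lower in the single-drug experiment, out of the same 13.2% and 24.0% of all tested genes. The group of signalling and feedback genes had 4 higher and 1 lower of 12 tested in the mixture experiment, and 4 and 2 in the single-drug experiment, with median log2 fold changes of 0.36 and 0.21. Socs3, a cytokine feedback inhibitor, rose by 3.95 ± 0.38 (adjusted p = 6.23e-05) and 3.57 ± 0.79 (adjusted p = 0.00428). Socs1, its relative, rose by 4.23 ± 0.66 (adjusted p = 0.00132) and 3.21 ± 1.04 (adjusted p = 0.0353), from means of 0.112 and 0.209 CPM.

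Other bridging ligands had 0 higher and 1 lower of 5 in the mixture experiment and 1 higher and 2 lower in the single-drug experiment (medians -0.09 and -0.45), beside 13.2% and 24.0% of all tested genes called. Tub, a reported ligand of the family, fell by 0.30 ± 0.09 (adjusted p = 0.0440) and 0.64 ± 0.10 (adjusted p = 0.000329). Tulp1, its photoreceptor relative, was at -0.32 ± 0.13 (adjusted p = 0.151) in the mixture experiment and fell by 1.18 ± 0.17 (adjusted p = 0.000229) in the other. Lgals3 (galectin-3), reported as a Mertk ligand, was at 2.11 ± 0.65 (adjusted p = 0.0533) and rose by 2.48 ± 0.63 (adjusted p = 0.00964). Tulp1 is a rod and cone gene. The rod marker sums given above fell in the same libraries, and their part in the Tulp1 values was not tested.

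The engulfment machinery had 1 higher and 1 lower of 14 in the mixture experiment and 5 and 3 in the single-drug experiment (medians 0.11 and 0.14). In the mixture experiment this share is near the 13.2% called among all tested genes; in the single-drug experiment 24.0% were called. Dock1, an activator of Rac in phagocytosis, rose by 1.48 ± 0.19 (adjusted p = 0.000399) and 1.63 ± 0.22 (adjusted p = 0.000181). Gulp1, an engulfment adaptor, fell by 0.91 ± 0.13 (adjusted p = 0.000738) and 0.56 ± 0.18 (adjusted p = 0.0363). Elmo2, the Dock1 partner, was at 0.26 ± 0.09 (adjusted p = 0.0755) and -0.05 ± 0.09 (adjusted p = 0.751).

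Genes of phosphatidylserine exposure and of eat-me or do-not-eat-me signals had 2 higher and 2 lower of 11 in the mixture experiment and 2 and 3 in the single-drug experiment (medians -0.02 and 0.14), against the same 13.2% and 24.0%. Cd47, the do-not-eat-me signal, rose by 0.75 ± 0.07 (adjusted p = 5.09e-05) and 0.85 ± 0.14 (adjusted p = 0.000659). Sirpa, its receptor, fell by 0.48 ± 0.06 (adjusted p = 0.000279) and 0.71 ± 0.12 (adjusted p = 0.000571). Atp8a2, a flippase that keeps phosphatidylserine inside, fell by 0.59 ± 0.11 (adjusted p = 0.00391) and 1.04 ± 0.12 (adjusted p = 9.64e-05). The rod marker sums given above fell in the same libraries, and their part in these values was not tested.

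Other apoptotic cell receptors had 0 higher and 2 lower of 12 in the mixture experiment, and 1 of each in the single-drug experiment (medians 0.10 and -0.02), where 13.2% and 24.0% of all tested genes were called. Cd36, a scavenger receptor, fell by 0.84 ± 0.23 (adjusted p = 0.0311) in the mixture experiment and was at -0.89 ± 0.42 (adjusted p = 0.141) in the other. Scarb1, a lipoprotein and phosphatidylserine receptor, fell by 0.39 ± 0.11 (adjusted p = 0.0329) and 0.94 ± 0.14 (adjusted p = 0.000299). Megf10 did not pass, at 0.36 ± 0.15 (adjusted p = 0.141) and 0.34 ± 0.19 (adjusted p = 0.224).

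Vitamin K dependent carboxylation, with 4 genes listed, makes Gas6 and Pros1 active. The 2 proteases Adam10 and Adam17 are known to shed Axl and Mertk. Light called 0 of these genes in either experiment by edgeR, beside 13.2% and 24.0% of all tested genes. Vkorc1l1 was at -0.21 ± 0.09 and -0.10 ± 0.08, Adam10 at -0.30 ± 0.09 (adjusted p = 0.0618) and 0.02 ± 0.07, and Adam17 at -0.12 ± 0.14 and -0.02 ± 0.14. Of the 5 LXR and RXR regulators, which raise Mertk and Axl in phagocytes, light called 0 in the mixture experiment. In the single-drug experiment it called 1, Rxra, which fell by 0.86 ± 0.13 (adjusted p = 0.000273). The lists in this paragraph are too short for their counts to be told apart from the shares of 13.2% and 24.0%.

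With drug before light, 11 of the 65 genes were higher and 11 lower with BMT than with light alone, 5 and 6 with MDB, 12 and 8 with BRM, 8 and 7 with MTP, 8 and 5 with TAM, and 9 and 5 with DOX. Of all tested genes, 17.7%, 9.63%, 14.4%, 10.3%, 10.6% and 11.9% were called in the same order. Socs3 fell with BMT, MDB and BRM, and was at -2.39 ± 0.74 with MTP (adjusted p = 0.0536), -1.74 ± 0.72 with TAM (adjusted p = 0.143) and -1.28 ± 0.71 with DOX (adjusted p = 0.252). Dock1 fell with all 6, from -1.41 ± 0.22 with MTP to -1.05 ± 0.22 with TAM. Cd47 was lower and Sirpa higher with all 6. Adam10 and Vkorc1l1 were higher with BMT, by 0.44 ± 0.09 (adjusted p = 0.00840) and 0.35 ± 0.09 (adjusted p = 0.0201). Neither was called in the other drug groups. Against unexposed retinas, 0 of the 65 genes were called with any drug by edgeR. The same fits called 0% of all tested genes, so the 65 share that count with every other gene.

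Over the 30 libraries, each centred on the mean of its experiment, the genes most like each of the 5 were found by Pearson correlation of log2 CPM among 13010 genes. The libraries share the light and drug groups, so these are descriptions. Axl was most like Aldh1l1 (r = 0.979), a glial folate enzyme, and Msn (0.973), which is moesin. Pros1 was most like Tagln2 (0.957), Rras (0.955) and Tnfrsf1a (0.943), and Axl came in place 65 of its list (r = 0.887). Gas6 was most like Tmbim6 (0.956), Stard10 (0.956) and Galnt10 (0.955), and its r with Axl was -0.710. Mertk was most like Man1a (0.891), Met (0.845) and Man2a1 (0.839), with r = 0.430 to Axl. Tyro3 had weaker neighbours, Igfbp2 (0.766), Actn4 (0.748) and Tmem205 (0.747).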

How the data were processed

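The authors deposited expected counts and FPKM per transcript from eXpress, and TMM-normalized FPKM, for 30 stranded mRNA libraries, with the build GRCm38.p3 and the tools Trimmomatic, Bowtie2, eXpress, TopHat2, edgeR and limma named in the submitters' processing notes, without roles. The deposited tables of changed transcripts give log2 fold changes, adjusted p-values and an F score from the authors. The expected counts of 102906 transcripts were summed per gene identifier and rounded. Each experiment was fitted separately, with all its groups, in edgeR 4.0.16 (R 4.3.3; filterByExpr, TMM, quasi-likelihood, Benjamini-Hochberg over all tested genes, adjusted p under 0.05). CPM are TMM-scaled. Shares between genes use the deposited FPKM. Alternatives were size factors, no filter, DESeq2 1.42.0, limma voom 3.58.1, a replicate block, a lens-fibre covariate, the compared groups alone, limma on log2(FPKM + 1) or log2(FPKM + 0.1) per transcript, and each library left out. The tests were tried on simulated counts. No libraries were duplicates. Listed genes with several identifiers used the one on a primary chromosome with most counts. The 5 genes are all named; of each pathway list at most 3 are named, ranked by the adjusted p of the mixture experiment's light comparison (Kdr and the 4 astrocyte markers were chosen after their values were seen), and at most 3 neighbours of each of the 5 genes by correlation. Some genes these rules name are not reported here. The genes and lists were chosen with earlier results of these data known.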

Additional observations from a re-analysis of the deposited data

How the results depend on the processing

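No direction of a called gene reversed under any alternative run. Of the recomputed values of the 5 genes, 1176 kept their side of the threshold, 31 lost it and 8 gained it. Pros1 with BRM was called with DESeq2 (0.0368), the lens-fibre covariate (0.0265), limma voom (0.0214) and the compared groups alone (0.00104), Pros1 with MTP with limma voom (0.0354) and the compared groups alone (0.00985), and Pros1 with TAM with limma voom (0.0410). With all libraries kept, the count of the 5 genes called moved by over 1.5 times only with TAM, from 3 to 0 on the compared groups alone, where 298 genes in all were called. The cause was not tested. Replicate numbers did not pair the libraries: same-numbered libraries of the mixture experiment correlated at -0.22 to 0.56 (mean 0.01) and of the single-drug experiment at -0.26 to 0.44, and 9 of 30 correlated best with their own number. With the replicate block the genes called by light were 2014 and 3650, and no count of the 5 genes changed.

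Gene counts on FPKM with pseudocount 0.1 were 1346 for light in the mixture experiment, 1664 with BMT, 927 with MDB, 1520 with BRM, 1082 with MTP and 1158 with DOX; with pseudocount 1 they were 1767 with BMT and 1027 with MDB. With DOX and light alone fitted, 1065 genes were called. Against unexposed retinas DESeq2 called 13 (BMT), 22 (MDB), 381 (BRM), 3 (MTP), 7 (TAM) and 11 (DOX) genes, FPKM with pseudocount 0.1 called 1, 7, none for BRM and MTP, 1 (TAM) and 1 (DOX), and with pseudocount 1 called 3 (MDB), 1 (BRM), 1 (MTP) and 1 (TAM). For BRM, limma voom and no filter each called 1, and for DOX the compared groups alone called 34. Between the mixtures DESeq2 called 617 and FPKM 3 and 2. For the difference in light response DESeq2 called 410 and limma voom 11.

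With each library left out, genes called ranged from 1310 to 2781 (light, mixture), 2550 to 3605 (light, single-drug), 1514 to 2589 (BMT), 919 to 1376 (MDB), 910 to 2491 (BRM), 801 to 1313 (MTP), 597 to 2446 (TAM) and 443 to 2283 (DOX). They ranged from 0 to 1 for BMT and TAM against unexposed retinas and from 0 to 126 for the difference in light response. Of the 5 genes, 2 to 3 were called with BMT and MDB, 1 to 2 with MTP, and 1 to 3 with TAM and DOX. The share of Axl-002 by FPKM had medians of 1.97% and 9.94%. Mertk, at 78 to 262 counts a library, had an SE of 0.28 in the mixture light comparison, against 0.09 for Gas6 at 1844 to 4321. Tyro3, at 146 to 354 counts, also had an SE of 0.09. The cause of the wider spread of Mertk was not tested.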
